A study of Homo sapiens with 4 samples.

Results

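Open chromatin was followed around 5 genes of the Nodal pathway, NODAL, LEFTY1, LEFTY2, CER1 and TDGF1, in H1 human embryonic stem cells. The members are the ATAC-seq peaks with any base within 50 kb of one of these genes on hg19, taken from the 4 deposited peak lists. Peaks of the 4 lists that touched or overlapped were joined into regions, and 43 of the 87966 regions of the genome lay near the 5 genes: 12 near NODAL, 19 near LEFTY1 or LEFTY2, 3 near CER1 and 9 near TDGF1. The genes were chosen by name, with earlier results of these data known, and the rule used no measured value.

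H1 is an established embryonic stem cell line, grown here without feeder cells on Matrigel. ATAC-seq uses a transposase that cuts accessible DNA, so a peak marks a stretch of open chromatin and does not measure RNA. Control cells stayed in growth medium with N2, B27 and basic fibroblast growth factor. The other cells were changed to a medium with B27 alone and given Activin A at 25 ng/ml, Wnt3a at 25 ng/ml, or both at 25 ng/ml each, for 6 h. Ligand and medium changed together against control, while the 3 treated groups share a medium. Each group is 1 library of this line, so no test between groups was possible, no p-value is given, and a difference between libraries cannot be told apart from a difference between conditions.

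NODAL encodes a secreted TGF-beta type ligand, which acts through type I and type II activin receptors to SMAD2 and SMAD3. TDGF1, now also named CRIPTO, encodes the membrane-bound co-receptor that Nodal needs and Activin does not. LEFTY1 and LEFTY2 encode secreted inhibitors that keep Nodal from its receptors, and CER1 (Cerberus) encodes a secreted antagonist that binds Nodal. Nodal signalling is known to act on its own ligand gene and on the LEFTY genes through SMAD proteins and the forkhead factor FOXH1, and Activin A enters the same SMAD pathway. Human embryonic stem cells use this pathway to stay pluripotent, and stronger signalling drives them towards mesendoderm, the precursor of mesoderm and endoderm.

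The sequences before the starts of NODAL, CER1 and TDGF1 are shown because peaks lay over each of these starts in 2 or more of the lists. Each is the 250 bases before the start, 5′ to 3′, from the RefSeq promoter table on GRCh38.p14. The peaks are on hg19, and no position was converted between the builds. Capitals mark a match to one of the motifs searched.
NODAL promoter, chr10:70441682-70441931, minus strand: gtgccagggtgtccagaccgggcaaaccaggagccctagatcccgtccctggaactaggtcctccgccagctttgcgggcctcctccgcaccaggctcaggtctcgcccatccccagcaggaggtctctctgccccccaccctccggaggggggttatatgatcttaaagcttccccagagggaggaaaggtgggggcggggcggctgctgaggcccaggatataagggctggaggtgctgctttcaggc
CER1 promoter, chr9:14722734-14722983, minus strand: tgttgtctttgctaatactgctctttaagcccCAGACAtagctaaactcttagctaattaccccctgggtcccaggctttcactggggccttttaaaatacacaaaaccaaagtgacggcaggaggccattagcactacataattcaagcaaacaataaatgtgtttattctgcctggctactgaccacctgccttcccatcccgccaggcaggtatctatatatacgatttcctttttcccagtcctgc
TDGF1 promoter, chr3:46574285-46574534, plus strand: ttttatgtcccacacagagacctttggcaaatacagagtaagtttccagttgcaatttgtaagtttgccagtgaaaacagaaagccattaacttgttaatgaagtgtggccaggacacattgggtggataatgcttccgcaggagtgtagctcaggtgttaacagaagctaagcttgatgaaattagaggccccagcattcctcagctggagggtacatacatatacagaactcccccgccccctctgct
The windows were searched on both strands for AATCCACA (the core bound by FOXH1), GTCTAGAC and CAGACA (letters of SMAD sites) and CTTTGAT (letters of TCF/LEF sites, where beta-catenin acts). Matches to different motifs can overlap only in their end bases. The 1 match was CAGACA before CER1, starting 218 bases before the gene start. Of the 35116 promoter windows of the table, 13.6% held CAGACA, 0.182% GTCTAGAC, 0.709% AATCCACA and 2.26% CTTTGAT. GC content was 65.2% before NODAL, 45.2% before CER1 and 45.6% before TDGF1, where the window of a further start downstream, also without a match and not shown, had 51.2%, against a median of 58.0% over the table. LEFTY1 and LEFTY2 had no entry.

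The Activin A list held the most peaks near the 5 genes and the Wnt3a list the fewest. There were 22 in the control list, 45 with Activin A, 18 with Wnt3a and 34 with the pair of ligands. Over the whole genome the lists hold 26223, 75585, 21078 and 58382 peaks in that order. Near the 5 genes the number was thus 2.05 times control with Activin A, 0.818 times with Wnt3a and 1.55 times with both, beside 2.88, 0.804 and 2.23 times for all peaks. The growth in number around these genes was no larger than that of the lists as a whole. With each list cut to its 21078 best peaks the order was lost, at 17 peaks in control, 18 with Activin A, 18 with Wnt3a and 16 with both. Peaks summed to 16.5 kb in control, 41.5 kb with Activin A, 9.81 kb with Wnt3a and 33.4 kb with both. That is 2.51, 0.593 and 2.02 times control, beside 3.08, 0.737 and 2.55 times for all peaks.

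**Figure D1:**
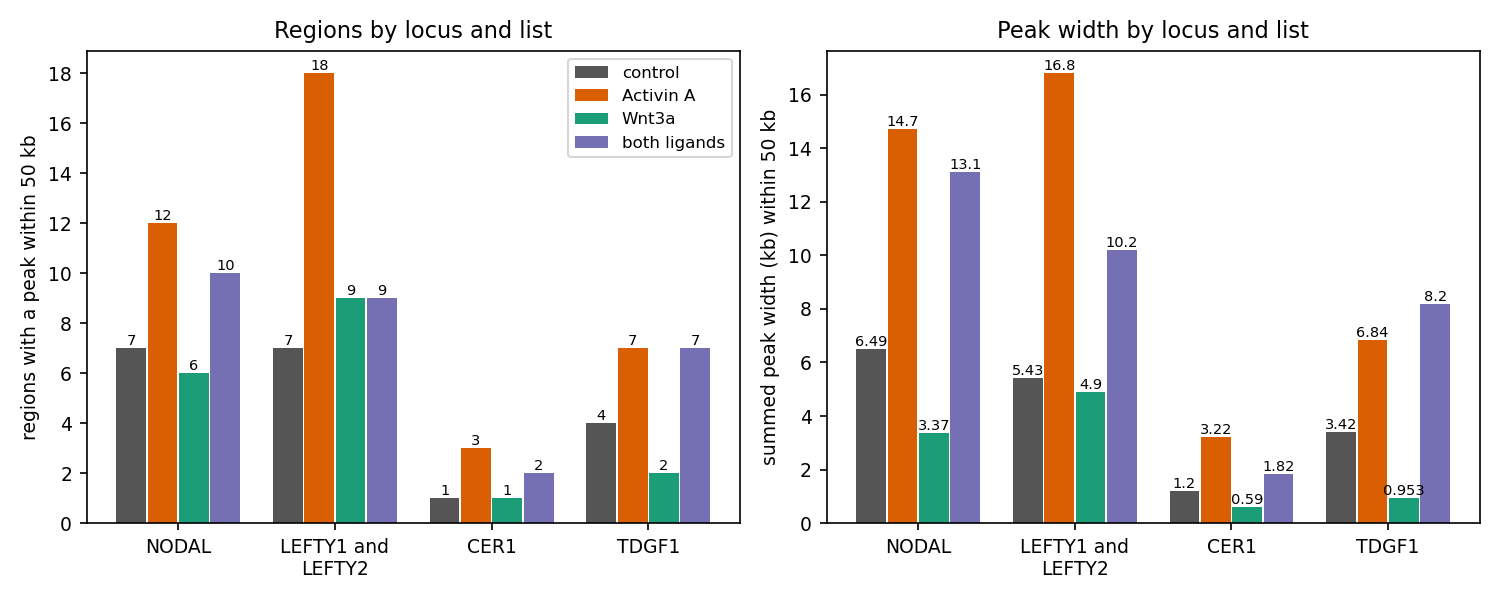
Regions with a peak (left) and summed peak width in kb (right) within 50 kb of each gene, by list, with 1 library per bar and no error; LEFTY1 and LEFTY2 share a window. The LEFTY locus had 18 regions with Activin A and 7 in control, and the TDGF1 locus had 0.953 kb of peaks with Wnt3a against 3.42 kb in control.

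Against control, the counts of regions gained and lost near the genes lay near or below those of the genome. After Activin A, 23 of 40 regions had no control peak, beside 70.0% of all Activin A regions, and 2 of 19 control regions had no Activin A peak, beside 11.5%. After Wnt3a, 6 of 18 regions were gained, beside 33.1%, and 7 of 19 control regions were lost, beside 46.5%. With both ligands, 10 of 28 regions were gained, beside 62.5%, and 1 of 19 control regions was lost, beside 15.2%. These 3 comparisons share the control library.

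With both ligands instead of Activin A alone, 2 of 28 regions were gained, beside 21.0%, and 14 of 40 Activin A regions were lost, beside 39.4%. Against Wnt3a alone, 12 of 28 regions were gained, beside 67.9%, and 2 of 18 Wnt3a regions were lost, beside 9.27%. With lists of equal length that comparison turned, to 4 gained and 6 lost. By the lists that held them, 11 of the 43 regions were found in every list, 12 with Activin A alone, 6 in all but Wnt3a, 5 in Activin A and both ligands, and 4 in all 3 treated lists but not control. Over the genome these kinds make up 14.8%, 30.1%, 8.43%, 21.9% and 5.24% of regions. Of the other 5 regions, 2 were in the Activin A and Wnt3a lists, 1 in all but Activin A, 1 in control alone and 1 with both ligands alone, kinds that make up 0.945%, 0.0637%, 2.55% and 12.4% of the genome's regions.

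The standing of a peak is given below as the percentile of its deposited score among the peaks of its own list, so that 100 is the best peak of the list. From its values the score appears to be a log-scaled p-value of the caller, which can move with depth and width, so high and low refer to this score and not to the height of the signal. Lists differ in length, and the lowest peaks of a long list are not found in a short one, so a percentile in one list is not equal to the same percentile in another. To put the lists on the same footing, the 13016 regions found in all 4 lists were also ranked among themselves in each list. That rank is called the shared-set percentile.

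**Figure D2:**
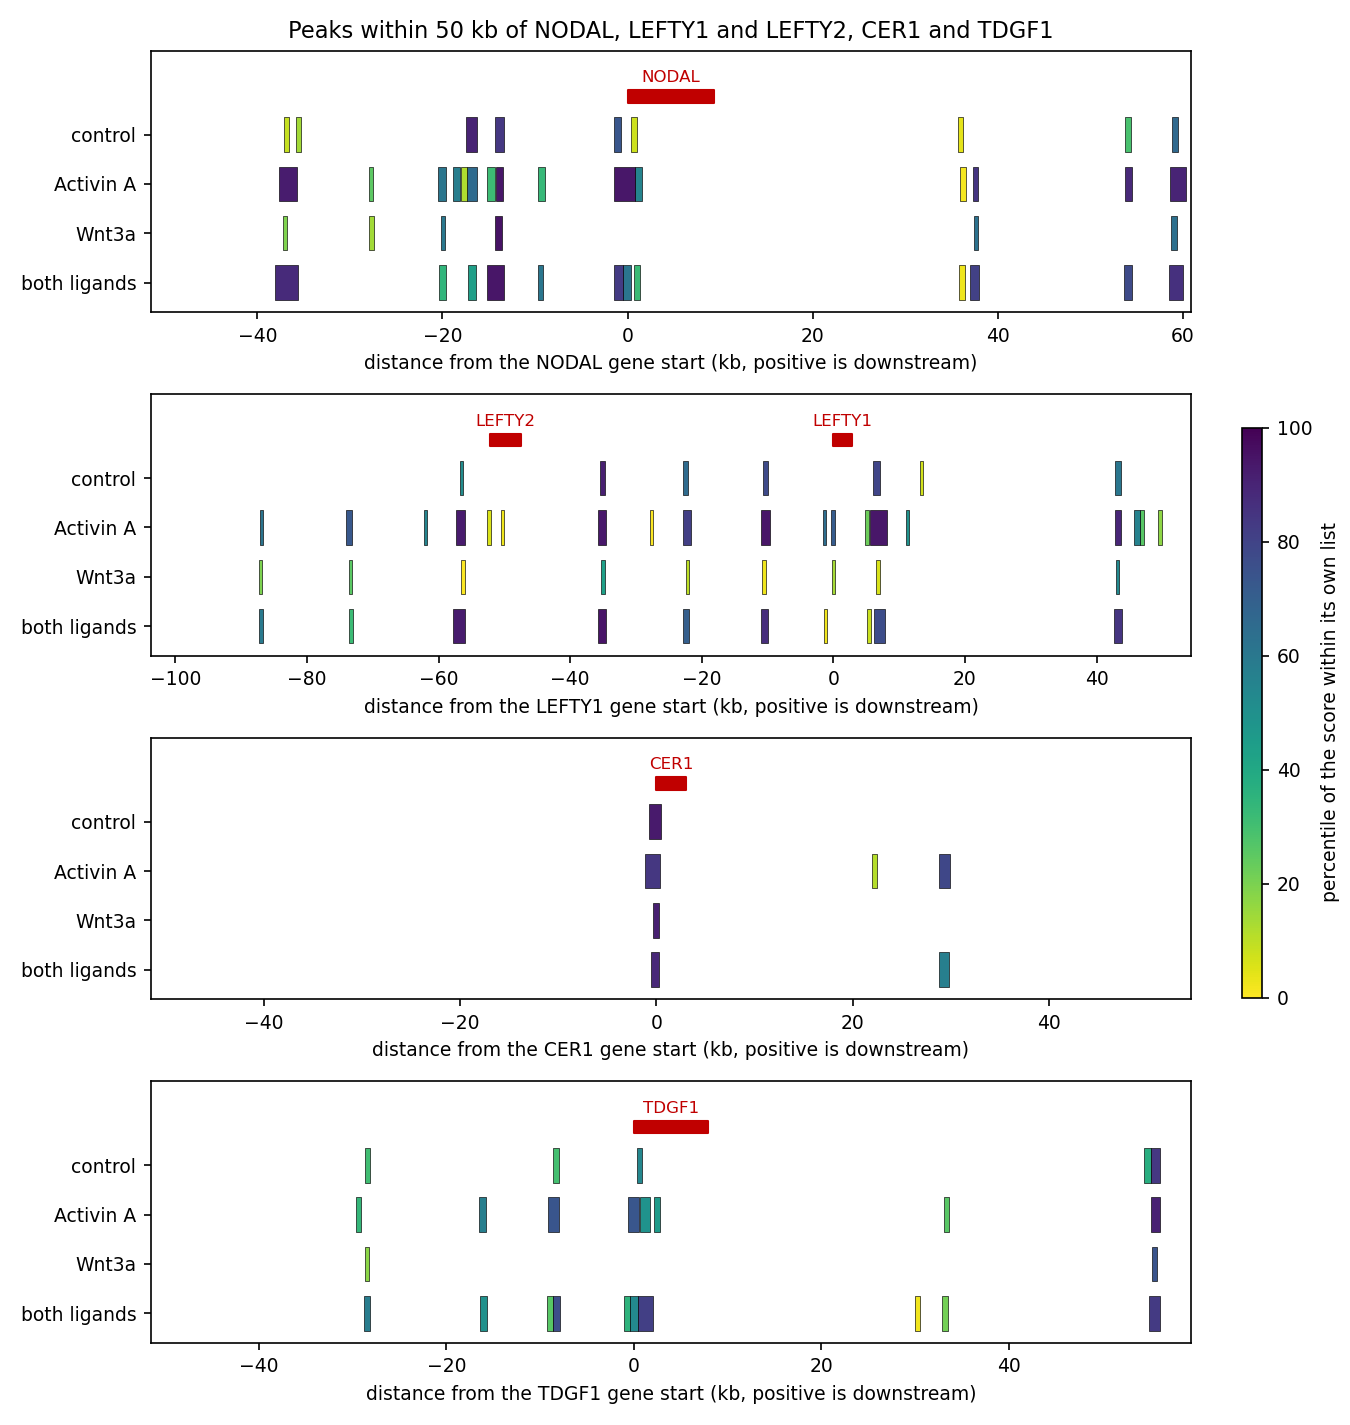
Peaks of the 4 lists around each gene, drawn by distance in kb from the gene start with positive values downstream; red bars are the genes and the colour is the percentile of the peak score within its own list. The starts of NODAL and TDGF1 lie under a peak with Activin A and with both ligands, the start of CER1 lies under one in every list, and Wnt3a peaks between the LEFTY genes are yellow to green, at percentile 43.4 or below.

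The ligand gene NODAL lies on the minus strand of chromosome 10 (chr10:72192072-72201465). The region at its start, chr10:72199886-72202975, was found in control, Activin A and combined lists but not with Wnt3a. Its best peak was at percentile 73.4 in control, 94.1 with Activin A and 82.8 with both ligands. Peaks in it covered 1386 bp in control, 2978 bp with Activin A and 2530 bp with both ligands. The better-scoring control peak, of 810 bp, lay upstream of the gene start. The start itself lay under a peak with Activin A, where a single peak of 2221 bp spanned it, and with both ligands. With both ligands the peak over the start was 807 bp wide at percentile 61.1, and the peak at 82.8 lay upstream of the start. The other control peak, at percentile 7.79, ended 419 bases short of the start, inside the gene, and the nearest Wnt3a peak was 13.5 kb away.

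Upstream of NODAL, 2 neighbouring regions differed in opposite ways. The region 14.2 kb upstream, chr10:72214786-72216606, was among the best of each list, at percentile 83.8 in control, 94.0 with Activin A, 95.2 with Wnt3a and 94.5 with both ligands. Its shared-set percentile was 69.3 in control, 66.7 with Activin A, 92.4 with Wnt3a and 75.8 with both, so it ranked highest with Wnt3a. Of the 1301 other shared regions within 5 points of its control percentile, 4.77% ranked as high with Wnt3a. Over all other shared regions, 18.9% shifted as far up from control with Wnt3a.

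The region 17.1 kb upstream, chr10:72217703-72219450, was highest in control. It stood at percentile 90.4 in control, 65.5 with Activin A and 44.1 with both ligands, and had no Wnt3a peak. A control peak this high was rarely missing from the Wnt3a list. Of the 2593 control regions above the 90th percentile, 50 (1.93%) had no Wnt3a peak. Of the 3 such control regions near the 5 genes, this 1 lacked it. For control regions between the 50th and the 75th percentile, where the NODAL and TDGF1 starts lie, the share was 40.6%, and 2 of 6 near the genes were missing.

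The region 36.7 kb upstream, chr10:72236709-72239598, followed another order. It was weak in control (percentile 13.9) and with Wnt3a (19.5) and among the best with Activin A (92.3) and both ligands (88.1). Its peaks covered 1121 bp in control, 1954 bp with Activin A, 477 bp with Wnt3a and 2528 bp with both. The shared-set percentile was 5.71 in control, 58.5 with Activin A, 11.3 with Wnt3a and 52.1 with both. In the shared set both libraries with Activin A thus stood near the middle, and both without it were low. Of 1297 other shared regions with a like control percentile, 9.1% ranked as high with Activin A and 14.4% with both ligands, and their medians were 21.6 and 22.1.

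Of the other NODAL regions, 2 were found in all 3 treated lists and not in control. The region at chr10:72163510-72164420, 37.5 kb downstream of the start and beyond the gene's end, stood at percentile 84.5 with Activin A, 62.7 with Wnt3a and 80.7 with both. The region at chr10:72221080-72221922, 20.0 kb upstream, stood at 60.8, 60.0 and 34.4. A further 2 were in control and missing with Wnt3a. At chr10:72146921-72147842 the percentile was 29.0 in control, 88.4 with Activin A and 77.6 with both, and at chr10:72164900-72165782 it was 4.01, 1.86 and 2.45, the weakest region of the locus. In the RefSeq gene order NODAL lies between EIF4EBP2, which encodes a repressor of translation, and PALD1, and the regions were not assigned among these genes.

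Of the 4 remaining NODAL regions 3 were in only 1 or 2 lists. Those 9.31 kb upstream (percentiles 33.0 with Activin A and 60.8 with both) and 18.5 kb upstream (57.5 with Activin A alone) were not in the control and Wnt3a lists, and the one 27.7 kb upstream was in the Activin A (25.0) and Wnt3a (13.8) lists. The region farthest downstream, chr10:72141114-72142956, was in all 4 lists with shared-set percentiles of 43.5 to 49.4. It lay just inside the window, 49.1 kb from the gene, and the nearest region outside the window, 51.9 kb from the gene on its upstream side, stood at percentile 35.9 in control, 43.3 with Activin A and 24.4 with both and had no Wnt3a peak.

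The inhibitor genes LEFTY1 (chr1:226073982-226076846) and LEFTY2 (chr1:226124298-226129083) lie on the minus strand of chromosome 1 with their starts 52.2 kb apart, so 6 of the 19 regions are near both. LEFTY1 and LEFTY2 are close paralogs, and how reads that fit both were treated is not given in the sources used here, which limits the values inside the genes. Of 18 Activin A regions at this locus 12 were gained against control, and of 9 regions each with Wnt3a and both ligands 3 were gained. Beside the genome shares of 70.0%, 33.1% and 62.5%, the first 2 counts are near the background and the third is below it. The median percentile of the peaks was 65.5 in control, 61.6 with Activin A, 13.4 with Wnt3a and 73.4 with both ligands. Of the 9 Wnt3a peaks 7 stood at or below percentile 25.5 of their list, although as many regions were found there as with both ligands.

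The gene starts of LEFTY1 and LEFTY2 carried few peaks. At LEFTY1, chr1:226076554-226077245 covered the start with Activin A (percentile 71.4) and with Wnt3a (13.4) and was missing from the other lists. A second region 1.27 kb upstream, chr1:226077765-226078472, was at 64.6 with Activin A and 2.06 with both ligands. At LEFTY2, chr1:226128931-226129486 covered the start with Activin A alone, at percentile 5.79. No control peak lay within 4 kb of either start, the nearest being 6.04 kb from LEFTY1 and 4.08 kb from LEFTY2.

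Peaks with better scores stood between and beside the genes. The region 4.64 kb upstream of LEFTY2, chr1:226132816-226134627, was at percentile 51.9 in control, 92.7 with Activin A, 0.631 with Wnt3a and 92.4 with both ligands. Its peak was 497 bp wide in control, 1419 bp with Activin A, 599 bp with Wnt3a and 1740 bp with both. In shared-set percentiles it stood at 28.5, 60.4, 0.35 and 67.5 in the same order, so it ranked low only in the Wnt3a library among the 3 treated ones. Of 1304 shared regions with a like control percentile, 0.92% ranked as low with Wnt3a, 13.8% as high with Activin A and 8.21% as high with both. Over all other shared regions, 14.8% shifted as far down from control with Wnt3a, 9.31% as far up with Activin A and 5.95% with both.

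The region 10.3 kb upstream of LEFTY1, chr1:226086470-226087867, had the highest Activin A percentile of the 43 regions, 94.3, and stood at 77.4 in control, 2.42 with Wnt3a and 86.8 with both ligands. Its peak width was 804 bp in control, 1398 bp with Activin A, 592 bp with Wnt3a and 1016 bp with both. The shared-set percentile was 58.8 in control, 68.4 with Activin A, 1.4 with Wnt3a and 48.3 with both. Like the LEFTY2 region it was lowest with Wnt3a, and 1.46% of 1300 shared regions with a like control percentile ranked as low there.

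The widest region of the 43 lay beyond the LEFTY1 gene end, 6.52 kb downstream of the start (chr1:226068642-226072018). Its percentile was 79.6 in control, 94.1 with Activin A, 6.22 with Wnt3a and 76.8 with both ligands. Peaks covered 1089 bp in control, 3203 bp with Activin A, 572 bp with Wnt3a and 2206 bp with both. In the shared set it stood at 62.2, 67.4, 3.66 and 25.1, so the library with both ligands lay between those with a single one. Of 1302 shared regions with a like control percentile, 3.53% ranked as low with Wnt3a and 12.4% as low with both.

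The other shared regions of the locus also ranked lower with Wnt3a, apart from the one farthest out. The region chr1:226098459-226099767, 22.3 kb upstream of LEFTY1, had shared-set percentiles of 42.7 in control, 23.6 with Activin A, 5.89 with Wnt3a and 16.4 with both. The region chr1:226111425-226112620, 17.1 kb downstream of the LEFTY2 start, had 82.7, 63.5, 28.2 and 77.2, and held the highest percentile with both ligands of the 43 regions, 94.8 of its own list. The region chr1:226032996-226034173, 43.3 kb downstream of LEFTY1, stood at 37.5, 44.9, 36.5 and 41.4, within 10 points in every library.

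Some regions of the locus were missing from control or from the treated lists. Those at chr1:226149815-226150854 and chr1:226163509-226164144, 21.3 kb and 34.7 kb upstream of LEFTY2, were found in all 3 treated lists and not in control. The first was at percentile 72.9 with Activin A, 25.5 with Wnt3a and 31.7 with both, and the second at 61.6, 19.9 and 59.3. A weak control peak (percentile 7.01) at chr1:226063179-226063757, 13.4 kb downstream of LEFTY1, was in no treated list. The 7 remaining regions of the locus were found with Activin A alone, at percentiles from 0.534 to 55.9.

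**Figure D3:**
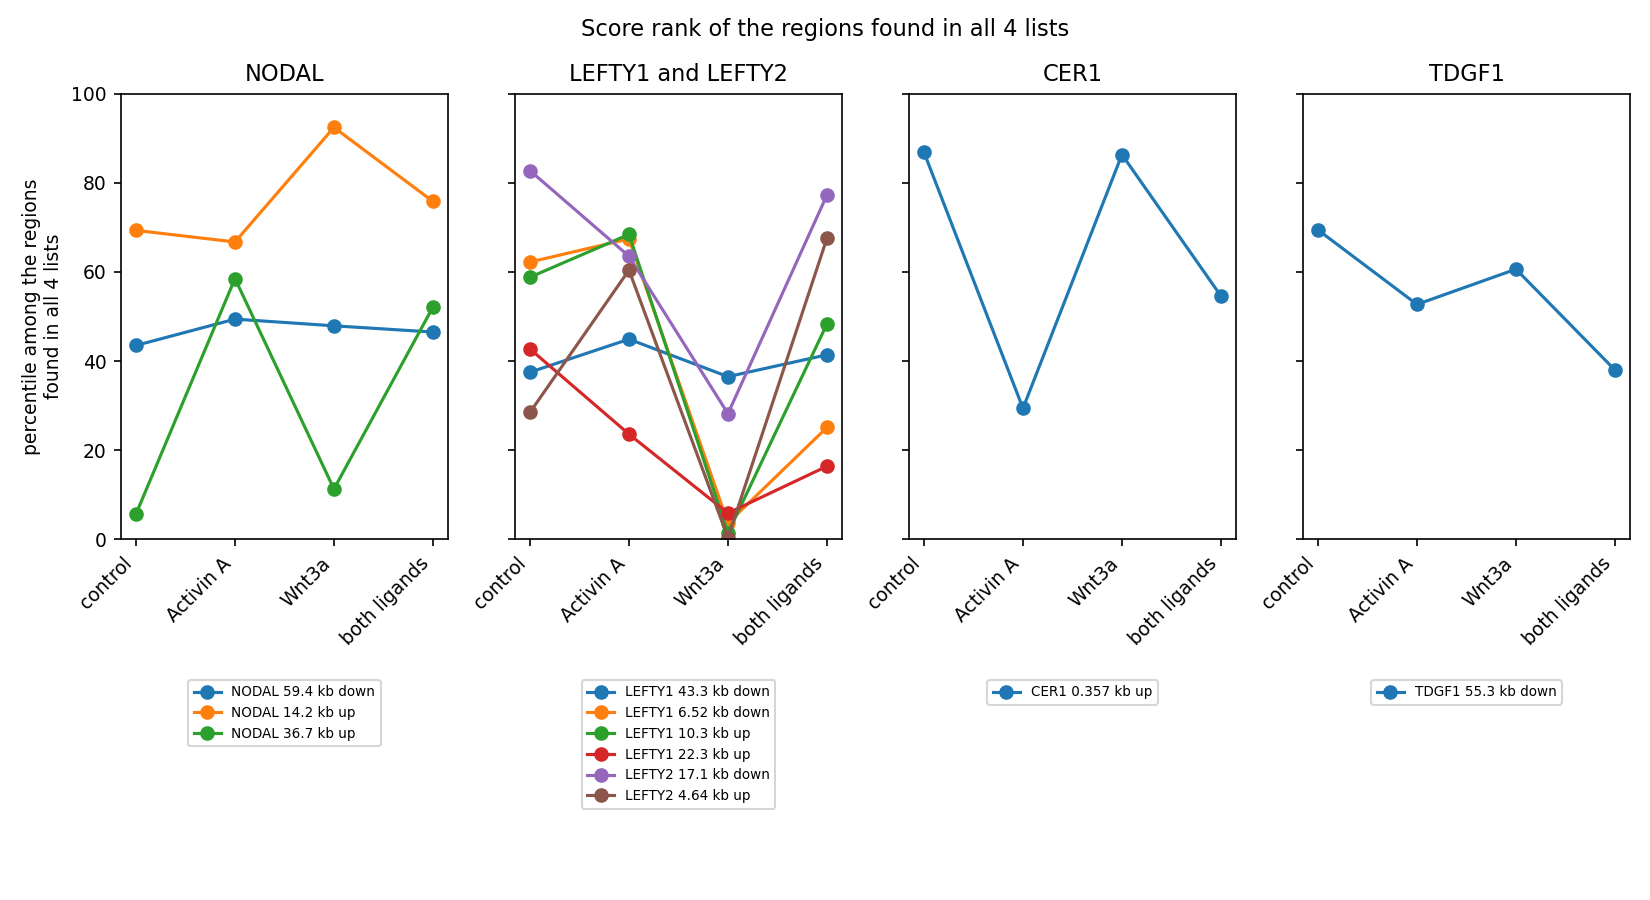
Shared-set percentile (0 to 100, ranked over the 13016 regions found in all 4 lists) of the 11 regions near the genes that were in every list; each line joins the values of 1 region in the 4 libraries and is named by gene and distance from its start. Of the 6 LEFTY lines 5 drop with Wnt3a, to between 0.35 and 28.2, while the CER1 line is lowest with Activin A, at 29.4.

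Over the 11 shared regions near the genes, 5 ranked over 10 points lower with Wnt3a than in control, beside 33.0% of shared regions, and all 5 were at the LEFTY locus, where the median shift of the 6 shared regions was -45.7 points. Over all shared regions the median was 0.102. Only 1 of the 11, upstream of NODAL, ranked over 10 points higher, beside 33.7%. After Activin A, 2 of 11 ranked higher than in control, beside 29.8%, and 4 lower, beside 31.4%. With both ligands 2 ranked higher, beside 29.3%, and 5 lower, beside 30.9%.

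Adding Activin A to Wnt3a went with a higher rank at the LEFTY locus. With both ligands against Wnt3a alone, 6 of the 11 ranked over 10 points higher, beside 30.7%, and 5 of these were among the 6 LEFTY regions. The other 3 that moved ranked lower, beside 32.8%, and lay at NODAL, CER1 and TDGF1. With both ligands against Activin A alone, 2 of 11 ranked higher, beside 24.9%, and 3 lower, beside 25.5%. The comparison of both ligands with Wnt3a alone reuses the Wnt3a ranks set against control above, so it is not a second observation. The LEFTY regions near each other share a locus and are not replicates. Whether the Wnt3a ranks there follow the ligand, the medium or this 1 library was not tested.

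CER1, the gene of the secreted antagonist, had the fewest regions. The region at its start, chr9:14722272-14723872, covered the start in all 4 lists and was at percentile 93.3 in control, 84.1 with Activin A, 91.3 with Wnt3a and 88.8 with both ligands. Its width was 1196 bp in control, 1569 bp with Activin A, 590 bp with Wnt3a and 748 bp with both. The shared-set percentile was 86.8 in control, 29.4 with Activin A, 86.3 with Wnt3a and 54.6 with both. The Activin A library was thus the lowest, whereas the LEFTY regions that shifted most were lowest with Wnt3a. Of 1300 shared regions with a like control percentile 2.0% ranked as low with Activin A. This is the region whose promoter sequence holds the CAGACA match.

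The other CER1 regions were downstream and absent from the control and Wnt3a lists. At chr9:14692763-14693947, 29.4 kb downstream of the start, the percentile was 78.7 with Activin A and 57.2 with both ligands, with widths of 1161 bp and 1068 bp. At chr9:14700214-14700700 a peak at percentile 11.2 was found with Activin A alone. No region lay in the window upstream of the start region.

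The co-receptor gene TDGF1 (chr3:46616045-46623953, plus strand) had a peak within 1 kb of its start in all lists but Wnt3a. The region chr3:46614962-46618047 was at percentile 53.7 in control, 73.4 with Activin A and 81.5 with both ligands. Peaks in it covered 599 bp in control, 2236 bp with Activin A and 3024 bp with both. The control peak began 301 bases inside the gene, whereas a peak covered the start with Activin A and with both ligands. This peak over the start was at percentile 73.4 with Activin A and 53.0 with both ligands, beside 53.7 for the control peak. The peak at 81.5 with both ligands lay inside the gene and did not cover the start. The nearest Wnt3a peak was 28.2 kb from the start. TDGF1 has pseudogene copies elsewhere in the genome, and the treatment of reads that fit several places is not given in the sources used here.

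Upstream of TDGF1, chr3:46606816-46608186 was at percentile 30.0 in control, 73.6 with Activin A and 76.2 with both ligands and was missing with Wnt3a. The region chr3:46587218-46587907, 28.5 kb upstream, was the only 1 of the 43 found in every list but Activin A, at 30.5 in control, 17.2 with Wnt3a and 58.2 with both, and an Activin A peak at percentile 33.6 lay beside it in another region. The region with the highest percentile near TDGF1 was chr3:46670481-46672171, at 83.9 in control, 90.9 with Activin A, 73.9 with Wnt3a and 83.1 with both. Its shared-set percentile was 69.4, 52.7, 60.6 and 38.0 in that order. It lies beyond the gene, where FAM240A and ALS2CL follow in the RefSeq order. On the upstream side LRRC2 and LRRC2-AS1 lie next to TDGF1 in that order, and the regions were not assigned among these genes.

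Besides the region of the Activin A peak at percentile 33.6, 4 further TDGF1 regions had no peak in control or with Wnt3a. Of these, the one 16.1 kb upstream was at 57.3 with Activin A and 49.9 with both, the one 33.2 kb downstream at 26.0 and 21.2, the one 2.48 kb downstream, inside the gene, at 45.5 with Activin A alone, and the one 30.2 kb downstream at 2.06 with both ligands alone.

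Peak width at the 11 shared regions differed between libraries. After Wnt3a, 7 of 11 were at least 1.5 times narrower than in control, beside 21.4% of shared regions, and 0 were as much wider, beside 6.38%. The median ratio of widths was 0.595, beside 0.885 for all shared regions. These widths are summed over the peaks of a region, and some of the control regions held 2 peaks. By the width of the best peak alone, 5 regions were narrower with Wnt3a. The share of all shared regions was not computed that way. After Activin A, 6 were at least 1.5 times wider, beside 42.0%, and 1 narrower, beside 0.807%. With both ligands 5 were wider, beside 43.3%, and 2 narrower, beside 0.791%. The narrower region with Activin A was the one 55.3 kb downstream of the TDGF1 start, where control had 2 peaks. The depth of the libraries is unknown, and width can change with it.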

How the data were processed

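ATAC-seq peaks of 4 libraries, 1 per group, were analysed. The authors deposited, per library, a list of peaks with position and a score. The build, hg19, and the tools CASAVA 1.8 and Bowtie2 2.2.2 are named per the submitters' processing notes. The peak caller's settings, duplicate removal, read shift and read numbers are not given in the sources used here. Depth is therefore unknown. The deposited score was used only to rank peaks. Starts and ends (other values in the files) are given counted from 1.

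Gene positions came from the rule that defined the loci and gene strands from general knowledge. Peaks overlapping by 1 base or more, or touching, were joined. Gained and lost mean present and absent in the deposited lists, with no further threshold set here. The lists ended at different scores near the genes. The lowest were 51.2 in control, 53.4 with Activin A, 58.4 with Wnt3a and 50.6 with both ligands. A region absent from a list can thus hold a signal below the end of that list. Regions in all 4 lists were ranked by best score, and shifts over 10 points and width ratios of 1.5 were counted. The joining and the gained and lost calls were tested on simulated lists. The shared-set ranks, the shifts and the width ratios were not. The comparison with regions within 5 points of the same control percentile, and the shares by class of control percentile, were added after the data were seen. The grouping of the shared regions into those of the LEFTY locus and the others was not among the planned results. Regions named are those at gene starts, the highest, those in all treated lists and not control, those of control missing after a treatment, and the largest rank shift per locus; a few others are given for completeness. Members and lists were chosen with earlier results of these data known. Other genes of the pathway and marker genes of the cell type were not analysed here, as no hg19 gene table was used. Python 3.11.15, numpy 2.4.6, pandas 2.3.3 and matplotlib 3.10.9 were used.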

Additional observations from a re-analysis of the deposited data

How the results depend on the processing

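Of 112 alternative counts, 57 stayed within 1.5 times the reported count and 55 did not. Counts near the genes are small, so a few regions decide them. With 20 kb on each side the peaks numbered 12, 28, 8 and 20 in control, Activin A, Wnt3a and both ligands. Against control 13, 2 and 4 regions were then gained with Activin A, Wnt3a and both, and 1 was lost with Activin A. Both ligands against Activin A gave 0 gained and 9 lost, and against Wnt3a 7 gained and 1 lost. With 100 kb there were 70 Activin A peaks, 41 and 22 regions gained with Activin A and both, and 12 and 3 lost with Wnt3a and both. Both against Activin A gave 4 gained and 23 lost, and against Wnt3a 26 gained. Lists cut to the 21078 best peaks held 18 Activin A and 16 combined peaks near the genes. Gains against control were then 4 with Activin A and 2 with both, with 2 lost with both. Both against Activin A gave 0 gained and 2 lost, and against Wnt3a 4 gained and 6 lost, so that losses outnumbered gains there. The cut keeps the Wnt3a list whole down to its weakest peaks and the Activin A list down to percentile 72.1. Above the median score of each list the peaks numbered 13, 28, 7 and 22, with 15 and 2 gained with Activin A and Wnt3a, 0 lost with Activin A, and 1 lost for both against Wnt3a. The rule of an overlap of 50% of each peak was counted in single peaks and not in joined regions, so the unit also changed. Against control it gave 11 losses with Activin A, 14 with Wnt3a and 8 with both. It gave 10 gains with Wnt3a and 20 with both. For both against Activin A 9 were gained, and for both against Wnt3a 25 were gained and 9 lost. Merging peaks within 500 bases, or counting absence only with no peak within 1 kb, each gave 1 lost with Activin A and 1 gained for both against Activin A, and the latter 1 lost for both against Wnt3a. These changes follow from the wider, narrower or stricter rules and, for the 50% overlap, also from counting peaks. Ranking by the widest peak gave 2 regions higher with Wnt3a, and ranking over the regions of the 2 lists compared gave 1 higher and 1 lower for both against Activin A. By the width of the best peak 0 regions were narrower with Activin A, 5 with Wnt3a and 1 with both. Control regions with several peaks then count by 1 of them. The 5 regions lower with Wnt3a stayed within 1.5 times in both rank alternatives. Leaving out or matching replicates was not possible, as there were none.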
